A study of Rattus norvegicus with 6 samples.

Results

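The genes described here are those named for the proteins of the mitochondrial ribosome, the Mrpl genes (mitochondrial ribosomal protein, large subunit) and the Mrps genes (small subunit). They were taken as the protein-coding rows of the gene count table whose symbol begins with Mrpl or Mrps followed by a number, with a single row a symbol. This gave 76 genes of 33565 rows, of which 46 are Mrpl and 30 are Mrps genes, on 19 chromosomes. Of these, 73 had enough counts to be tested. Mrps21l, with 8 counts over all libraries, and Mrpl36 and Mrpl53, each with 0 counts in every library (as had 4468 of the 22250 protein-coding rows), were not.

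The cells were primary cardiomyocytes from the hearts of Sprague-Dawley rats at postnatal day 7, grown in a standard Dulbecco medium to which 10% fetal bovine serum was added. They received control vehicle or 100 nM progesterone, a steroid hormone, for 24 h. Each group has 3 libraries, described by the labels as biological replicates, with no statement of whether separate animals or only separate cultures lay behind them. The p-values therefore weigh the group difference only against the variation of these libraries within a group, and that variation may be technical. The study's title refers to YAP, a coactivator of the Hippo pathway, and to repair of the heart. The single comparison is progesterone against vehicle.

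The libraries held 21156793 to 25376220 counts. With edgeR's quasi-likelihood test, 9497 of 15075 genes (63.0%) had a Benjamini-Hochberg adjusted p under 0.05, so most tested genes changed. As a check of the labelled cell type, all 7 measured cardiomyocyte markers were read in every library, with summed levels of 9409 to 9947 CPM (counts scaled for library size) in controls and 7843 to 8629 CPM with progesterone, where 1 rose and 4 fell. Markers of other cells were read too. The summed levels of 7 fibroblast markers were 27262 to 28360 CPM and 36795 to 39741 CPM with progesterone (4 rose, 2 fell), and those of 8 smooth muscle markers were 2256 to 2623 and 5448 to 6027 CPM (8 rose). The 7 endothelial markers summed to 147 to 187 and 110 to 148 CPM (2 rose, 3 fell). The 6 measured leukocyte markers summed to 24.3 to 35.7 and 40.3 to 49.3 CPM, with 3 of 4 tested higher, 1 lower and the T cell gene Cd3e at 0 in every library. Apart from the endothelial sums, which overlapped, these sums moved with the groups. The part of any of them in the results on the ribosomal genes was not tested. In such bulk samples fewer cells of a type and less RNA per cell cannot be told apart.

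The mitochondrial ribosome translates the few mRNAs that the mitochondrial genome encodes, all for membrane subunits of the respiratory chain and ATP synthase. Its rRNAs are mitochondrially encoded, while its proteins are made in the cytosol from nuclear genes and imported. Some of these proteins have a counterpart in the bacterial ribosome, and the others are particular to mitochondria. In the heart, which depends on respiration, defects of single subunits are known causes of cardiomyopathy in humans. The nuclear genes are classically linked to NRF1, to the ETS factor GABP (also called NRF2) and to YY1, which bind short elements near the start sites of many mitochondrial genes.

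Of the 76 genes, 60 matched a promoter in RefSeq (GRCr8, 250 bases before to 50 after the start). Stretches of 60 bases before the start of 6 genes are shown because the genes changed with progesterone, in either direction, and hold an element in common. They were chosen after the values were seen. The capitals mark CCGGAAG, the ETS core (or CTTCCGG on the other strand), in the first 4 and GCATGCG, the core of the NRF1 element, in the last 2. The positions, on GRCr8, are chr10:101145282-101145341 on the plus strand for Mrpl58, chr6:30553988-30554047 on the minus strand for Mrpl33, chr2:32474132-32474191 (plus) for Mrps27, chr10:80092258-80092317 (plus) for Mrpl27, chr10:82522365-82522424 (plus) for Mrpl10 and chr17:55260565-55260624 (plus) for Mrpl32.
Mrpl58: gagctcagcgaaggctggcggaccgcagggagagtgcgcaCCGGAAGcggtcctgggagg
Mrpl33: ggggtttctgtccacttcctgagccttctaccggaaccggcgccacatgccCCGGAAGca
Mrps27: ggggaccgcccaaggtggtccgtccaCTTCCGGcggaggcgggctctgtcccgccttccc
Mrpl27: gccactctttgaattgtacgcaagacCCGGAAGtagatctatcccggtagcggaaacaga
Mrpl10: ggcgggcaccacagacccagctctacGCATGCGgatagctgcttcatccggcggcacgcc
Mrpl32: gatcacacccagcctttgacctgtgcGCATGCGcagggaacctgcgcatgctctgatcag

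Mrpl58, Mrpl33, Mrps27 and Mrpl10 rose with progesterone, while Mrpl27 and Mrpl32 fell, so either element stood before genes of both directions. CCGGAAG was searched on both strands and found in 21 of the 60 promoters (35%), against 9.63% of all 27457 promoters and 17.2% of the promoters of 10268 tested protein-coding genes. AAGATGG, the core of the YY1 element, was in 16 (26.7%, against 7.77% and 8.54%), and GCATGCG was in 6 (10%, against 3.70% and 6.21%). At least 1 of the 3 was in 34 of the 60, and none was in that of Mrpl12, the gene with the largest rise. The median GC content was 55.8% in these promoters, 60.7% in those of tested genes and 51.7% in all. Of the 19 tested genes with CCGGAAG, 10 rose and 2 fell, with a median log2 fold change of 0.23. Of the 39 without it, 19 rose and 6 fell, with a median of 0.13. With AAGATGG 6 of 15 rose and 3 fell (median 0.09), and without it 23 of 43 rose and 5 fell (median 0.17), the other way round from CCGGAAG. With GCATGCG 3 of 6 rose and 1 fell (median 0.13), and without it 26 of 52 rose and 7 fell (median 0.14). None of these differences was tested. A match describes letters and is not a measured binding site.

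Mitochondrial ribosomal protein genes were more often higher than lower with progesterone, by small amounts. Of the 73 tested, 36 rose (49.3%, against 31.2% of all genes tested) and 8 fell (11.0%, against 31.8%), at an adjusted p under 0.05 with edgeR's quasi-likelihood test. The other 29 did not pass the test. The median log2 fold change was 0.13 (quartiles 0.01 to 0.33), against 0.00 (quartiles -0.37 to 0.32) over all genes tested, and 55 of the 73 values were above 0. The values ran from -0.49 for Mrps6 to 0.73 for Mrpl12. Called changes of at least 1.5-fold were few, 5 of the 73, all rises, while 29.0% of all tested genes passed both that fold and the test. The groups' CPM values did not overlap in 50 of the 73 (68.6% of all tested), with progesterone above in 38 (33.8%) and below in 12 (34.8%). Upper quartile scaling, which moved the median of all genes to 0.10, gave 47 higher and 4 lower. Under it 5843 of all 15075 genes tested were higher and 3879 lower. The 8 falls became 5 without control 1 or without progesterone 3.

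**Figure D1:**
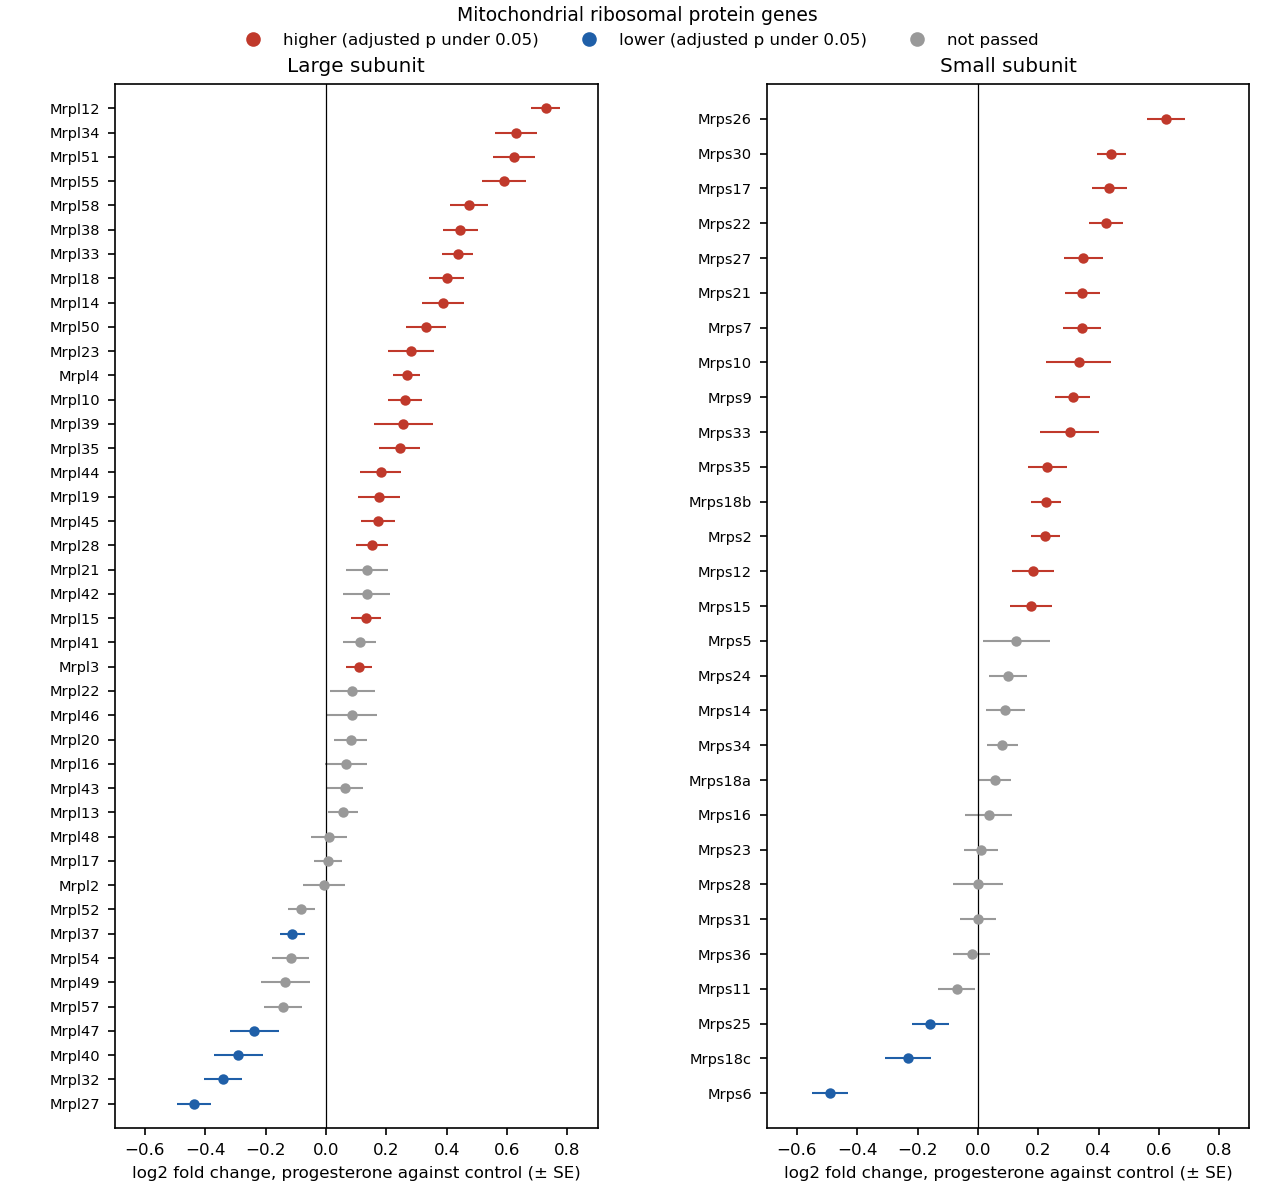
Log2 fold change (progesterone against control) of each tested gene with its standard error, large subunit and small subunit in separate panels, with rises, falls and genes that did not pass the test in separate colours. Mrpl1 and Mrpl30, whose standard errors exceeded 0.5, are left out. Most points lie between 0 and 0.5, and Mrpl12 (0.73) and Mrps6 (-0.49) mark the ends.

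The summed level of all 76 genes was 2776, 2647 and 2639 CPM in the 3 controls and 3003, 3027 and 3000 CPM with progesterone. The groups did not overlap, and the means were 2687 ± 76.9 and 3010 ± 14.7 CPM (SD, n = 3), a ratio of 1.12. The sum moved by less than many single genes, among which rises and falls stood side by side.

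Both subunits held more rises than falls, in similar shares. Of 44 tested Mrpl genes 21 rose, 5 fell and 18 did not pass, with a median log2 fold change of 0.13. Of 29 tested Mrps genes 15 rose, 3 fell and 11 did not pass, with a median of 0.18. In summed CPM, the Mrpl genes held 1725, 1654 and 1640 in controls and 1878, 1884 and 1876 with progesterone. The Mrps genes held 1051, 993 and 998 in controls and 1125, 1143 and 1124 with progesterone. Both sums were higher in each progesterone library than in any control. The ratio of the Mrpl to the Mrps sum was 1.64, 1.66 and 1.64 in controls and 1.67, 1.65 and 1.67 with progesterone (1.65 ± 0.0126 and 1.66 ± 0.0127, SD, n = 3), and the groups overlapped.

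On the deposited FPKM scale (counts per gene length and library size) the same ratio was 1.91, 1.95 and 1.91 in controls and 1.99, 1.98 and 1.97 with progesterone. There the groups did not overlap. With 3 libraries against 3, no exact permutation test that counts both directions can go below 0.10, so no p is given. The separation depended on which genes were summed. With each of the 76 genes left out in turn, an alternative added after the values were seen, the groups overlapped without Mrpl12, Mrpl33, Mrps6 or Mrps25. Without Mrpl33, whose short model gives it the highest FPKM of the 73 tested genes, the ratios were 1.71 to 1.74 in controls and 1.73 to 1.74 with progesterone. Without Mrps6 the order of the means turned, with 2.104 in controls and 2.099 with progesterone. Without Mrpl12 the means were 1.85 and 1.87, and without Mrps25 they were 2.05 and 2.09.

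**Figure D2:**
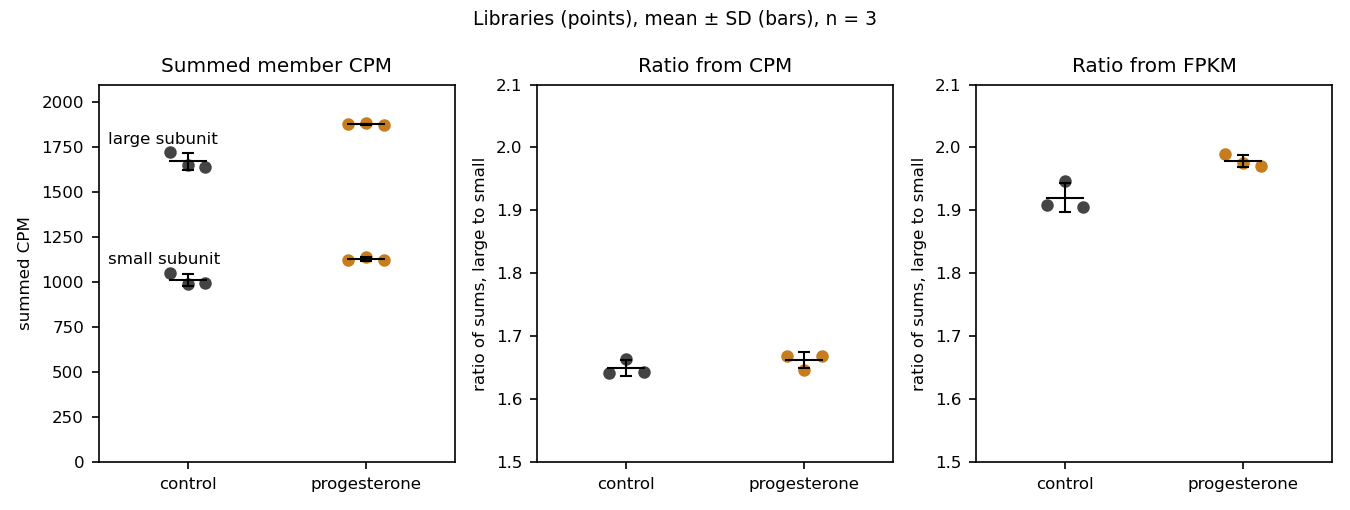
Summed CPM of the large and small subunit genes in each of the 6 libraries, and the ratio of the large to the small subunit sum from CPM and from FPKM, with points for libraries and bars for the mean ± SD (n = 3). Both sums are higher in all progesterone libraries. The ratio axes run from 1.5 to 2.1, so the separation of the FPKM ratios (1.92 against 1.98 on average) appears large for its size.

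Symbols do not always give the place of the protein. Mrps30 and Mrps18a sit in the large subunit in known structures, and Mrps36 is known as a subunit of the alpha-ketoglutarate dehydrogenase complex. With these reassigned, 22 of 46 large subunit genes rose and 5 fell, and 14 of 26 small subunit genes rose and 3 fell. The genes were also grouped by bacterial counterpart. Of 25 large subunit genes counted as having one, 13 rose and 3 fell (median 0.14). Of 21 counted as particular to mitochondria, 9 rose and 2 fell (median 0.11). In the small subunit these were 8 of 16 and 2 (median 0.15), and 6 of 10 and 1 (median 0.23). Mrps18a and Mrps18b were counted as particular to mitochondria, although their paralog Mrps18c was counted with the bacterial counterparts. The grouping is thus not strictly one of kinship. Rises and falls were thus found in both subunits and in both classes, and differences between the classes were not tested.

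The largest rise was in Mrpl12, a stalk protein of the large subunit, at which translation factors dock, which has also been linked to the mitochondrial RNA polymerase. Its levels were 103, 95.9 and 98.4 CPM in controls and 154, 169 and 169 CPM with progesterone. Each progesterone library was well above each control, with means of 99.0 ± 3.43 and 164 ± 8.79 CPM (SD, n = 3). The log2 fold change was 0.73 ± 0.05 (SE), or 1.66-fold (edgeR quasi-likelihood test, adjusted p = 2.87e-09). The gene (ENSRNOG00000036695) lies on chromosome 10 from 109658032 to 109662535 on the plus strand, in the coordinates of the deposited table, for which no rat build is named.

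The other Mrpl genes that rose by 1.5-fold or more were Mrpl34, Mrpl51 and Mrpl55. Mrpl34, the counterpart of a small bacterial large-subunit protein, had 18.5, 19.2 and 18.1 CPM in controls and 29.6, 27.2 and 29.7 CPM with progesterone. It rose 1.55-fold (log2 0.63 ± 0.07, adjusted p = 9.2e-07, edgeR). Mrpl51, a protein particular to mitochondria, had 34.3, 33.8 and 29.9 CPM in controls and 54.9, 47.9 and 48.4 CPM with progesterone. The lowest progesterone value was far above the highest control, and the rise was 1.54-fold (log2 0.62 ± 0.07, adjusted p = 1.3e-06, edgeR). Mrpl55, likewise particular to mitochondria, had 23.5, 22.3 and 22.2 CPM in controls and 36.3, 30.5 and 35.5 CPM with progesterone, a rise of 1.5-fold (log2 0.59 ± 0.07, adjusted p = 4.35e-06, edgeR). The 3 progesterone libraries of Mrpl55 were spread more widely (SD 3.16 CPM) than its controls (SD 0.714 CPM), without overlap.

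Mrpl58, also known as ICT1, is a peptidyl-tRNA hydrolase that frees stalled ribosomes and is also built into the large subunit. Its levels were 34.7, 31.2 and 31.6 CPM in controls and 47.5, 43.4 and 44.6 CPM with progesterone, 1.39-fold higher (log2 0.47 ± 0.06, adjusted p = 7.16e-06, edgeR). Mrpl38, a protein of the central protuberance, rose from 35.4, 32.3 and 32.4 CPM to 45.4, 44.8 and 46.1 CPM (1.36-fold, adjusted p = 6.49e-06, edgeR). Mrpl33, a small protein with a bacterial counterpart, rose from 41.7, 42.8 and 39.4 CPM to 56.0, 57.0 and 54.6 CPM (1.35-fold, adjusted p = 2.84e-06, edgeR). In each of the 3 genes the groups were clearly apart. Mrpl18, Mrpl14 and Mrpl50 followed at log2 values of 0.40, 0.39 and 0.33. The further rises, of Mrpl23, Mrpl4, Mrpl10, Mrpl35, Mrpl39, Mrpl19, Mrpl45, Mrpl28 and Mrpl15, lay between 0.13 and 0.28. Of these, 5 calls were lost on leaving out single libraries. For Mrpl15 these were any control or progesterone 3 (adjusted p from 0.0636 without control 3 to 0.181 without progesterone 3, edgeR). For Mrpl19 they were control 1, control 2, progesterone 1 or progesterone 2 (0.0542 without control 2 to 0.138 without control 1). Mrpl39 was lost without control 2, control 3, progesterone 1 or progesterone 2 (0.0654 without progesterone 2 to 0.143 without control 2). Mrpl28 was lost without control 2, control 3 or progesterone 1 (0.0521 without control 2 to 0.0804 without control 3), and Mrpl45 without control 3 (0.0835) or progesterone 3 (0.0724).

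Of the genes named Mrps, Mrps26 rose most. It encodes a small subunit protein particular to mitochondria, from a short gene (ENSRNOG00000021224) on chromosome 3 from 123093264 to 123094927, plus strand, in the table's coordinates. Its levels were 30.2, 28.1 and 30.2 CPM in controls and 44.8, 43.1 and 48.3 CPM with progesterone, without overlap. The means were 29.5 ± 1.23 and 45.4 ± 2.65 CPM (SD, n = 3), a rise of 1.54-fold (log2 0.62 ± 0.06, adjusted p = 3.74e-07, edgeR).

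Mrps30, in the large subunit by structure, had 43.6, 42.0 and 42.7 CPM in controls and 58.4, 58.0 and 57.9 CPM with progesterone. Its libraries hardly varied within a group (SD 0.821 and 0.268 CPM), and it rose 1.36-fold (log2 0.44 ± 0.05, adjusted p = 9.78e-07, edgeR). Mrps17, the counterpart of the bacterial rRNA-binding protein S17, rose from 31.1, 32.9 and 31.1 CPM to 44.2, 42.9 and 41.6 CPM (1.35-fold, adjusted p = 7.66e-06, edgeR). Mrps22, a small subunit protein with known human disease variants, rose from 32.5, 30.1 and 30.9 CPM to 42.1, 41.3 and 42.2 CPM (1.34-fold, adjusted p = 9.11e-06, edgeR). None of the 3 genes had overlapping groups.

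Rises of 1.27-fold were found for Mrps27, Mrps21 and Mrps7. Mrps27, a pentatricopeptide repeat protein, had 35.2, 32.2 and 33.5 CPM in controls and 40.4, 46.6 and 41.6 CPM with progesterone (adjusted p = 0.000248, edgeR). Mrps21, the counterpart of bacterial S21, had 29.1, 29.6 and 29.4 CPM in controls and 36.4, 39.1 and 36.6 CPM with progesterone (adjusted p = 9.55e-05, edgeR). Mrps7, the counterpart of an rRNA-binding assembly protein of the bacterial head, had 44.2, 38.3 and 38.5 CPM and 53.2, 51.2 and 49.6 CPM with progesterone (adjusted p = 0.000183, edgeR). The groups were apart in all 3. The Mrps7 gene overlaps Gga3 on the opposite strand by 772 bases, and Gga3 was itself higher (log2 0.49), so reads of the shared stretch cannot be told apart without strand.

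Smaller rises included genes of particular interest in the heart. Mrpl3 and Mrpl44 are large subunit genes in which human cardiomyopathy variants are known. Mrpl44 had 26.9, 27.8 and 29.8 CPM in controls and 34.1, 30.3 and 31.3 CPM with progesterone (1.13-fold, adjusted p = 0.0292, edgeR), and Mrpl3 had 71.0, 71.1 and 71.8 and then 76.8, 78.7 and 75.2 CPM (1.08-fold, adjusted p = 0.0365, edgeR). The groups did not overlap in either, but the calls were narrow. That of Mrpl44 was lost without control 1 (adjusted p = 0.114), without control 2 (0.0926) and without progesterone 1 (0.125). That of Mrpl3 was lost when any library other than progesterone 3 was left out (adjusted p from 0.0528 without control 3 to 0.1003 without control 2).

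Mrps12, at the decoding centre of the small subunit, had 31.6, 30.3 and 31.6 CPM in controls and 38.4, 35.9 and 31.8 CPM with progesterone. Its progesterone 3 library stood beside the controls, and the 1.14-fold rise (adjusted p = 0.0332, edgeR) was lost without each library except progesterone 3 (adjusted p from 0.0510 without control 3 to 0.155 without progesterone 1). Mrps35, a small subunit protein particular to mitochondria, rose from 24.3, 24.3 and 23.5 CPM to 30.0, 27.4 and 27.1 CPM (1.17-fold, adjusted p = 0.00653, edgeR). Mrps10, the counterpart of bacterial S10, had the lowest FPKM of the tested Mrps genes (8.09 in controls, 10.2 with progesterone). It rose 1.26-fold (adjusted p = 0.0145, edgeR), a call lost without control 1 (0.0757) or progesterone 1 (0.0509). The further Mrps rises, of Mrps9, Mrps33, Mrps2 and Mrps15, lay between log2 0.18 and 0.31, and Mrps15 was the only called gene of the 73 whose groups overlapped. The call of Mrps15 was lost without control 2 (adjusted p = 0.130, edgeR), control 3 (0.111) or progesterone 2 (0.203), and that of Mrps33 without control 3 (0.0613) or progesterone 3 (0.0944).

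**Figure D3:**
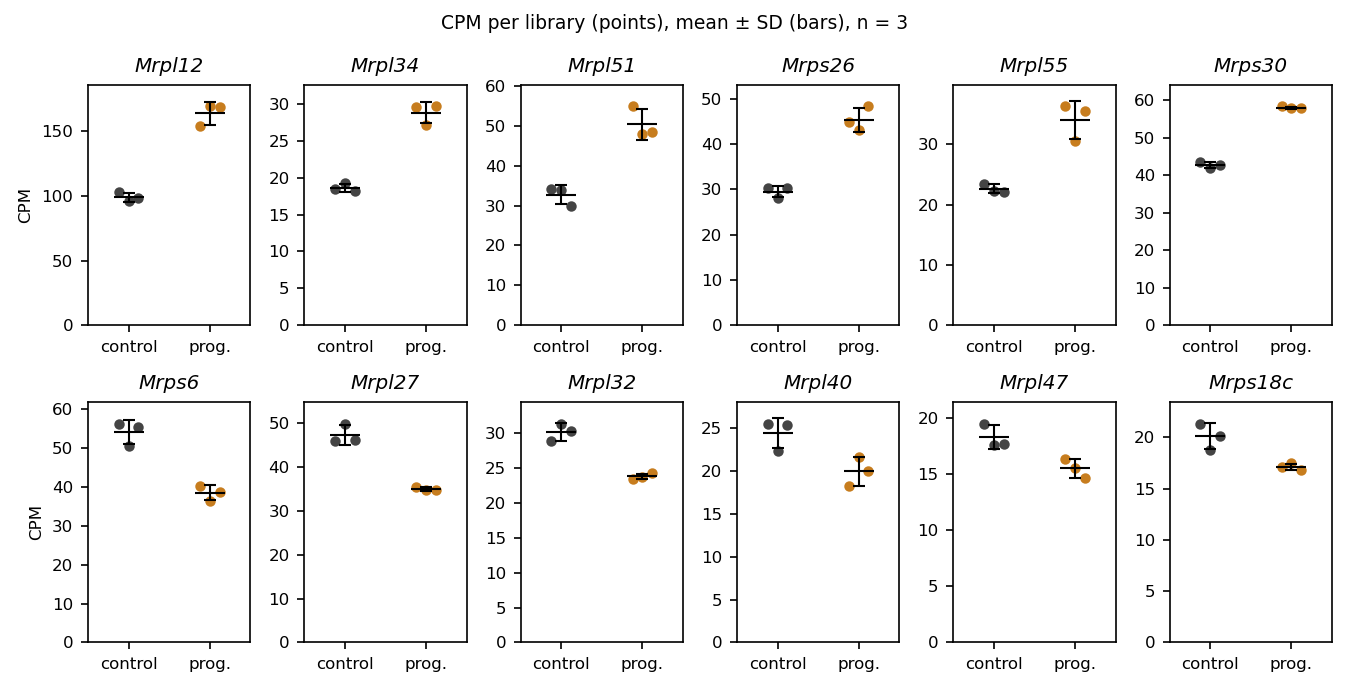
CPM in each library for 6 genes that rose (Mrpl12, Mrpl34, Mrpl51, Mrps26, Mrpl55, Mrps30) and 6 that fell (Mrps6, Mrpl27, Mrpl32, Mrpl40, Mrpl47, Mrps18c), with points for libraries, bars for the mean ± SD (n = 3) and every axis from 0. In none of the 12 do the control and progesterone points overlap, and Mrpl40 comes nearest to it (22.4 against 21.6 CPM).

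Among the 8 genes that fell, Mrps6 changed most. It is the counterpart of bacterial S6, which in the bacterial small subunit binds S18 on the platform. Its levels were 56.3, 50.6 and 55.5 CPM in controls and 40.4, 36.4 and 38.8 CPM with progesterone, with every progesterone library below every control. The means were 54.1 ± 3.06 and 38.5 ± 2.00 CPM (SD, n = 3), 1.41-fold lower (log2 -0.49 ± 0.06, adjusted p = 3.23e-06, edgeR). In controls Mrps6 had the highest FPKM of the Mrps genes (77.2), and with progesterone it had 54.8, below Mrps18a (62.6), Mrps34 (60.4) and Mrps21 (56.9). The gene (ENSRNOG00000059381) is on chromosome 11 from 32211115 to 32263899, plus strand, in the table's coordinates.

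Mrps18c, the mitochondrial counterpart of bacterial S18 and thus the neighbour of Mrps6 in the subunit, fell as well. It had 21.3, 18.8 and 20.2 CPM in controls and 17.1, 17.5 and 16.8 CPM with progesterone (1.17-fold lower, adjusted p = 0.0146, edgeR). The groups were close but did not overlap, and the call was lost without control 1 (adjusted p = 0.0607). Its paralogs went otherwise. Mrps18b, in the small subunit, rose from 47.2, 45.1 and 46.5 CPM to 55.7, 53.2 and 53.6 CPM (1.17-fold, adjusted p = 0.000958, edgeR), and Mrps18a did not pass the test (54.2 and 56.4 CPM on average, adjusted p = 0.378, edgeR). The difference between the paralogs was not tested.

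Mrpl27, the counterpart of bacterial L27, which reaches towards the peptidyl transferase centre, had 46.0, 49.9 and 46.1 CPM in controls and 35.5, 34.6 and 34.8 CPM with progesterone. The progesterone libraries were tightly grouped (34.98 ± 0.438 CPM, SD, n = 3) and far below the controls (47.3 ± 2.21 CPM), 1.35-fold lower (log2 -0.44 ± 0.06, adjusted p = 6.14e-06, edgeR). Mrpl32, whose protein is matured by the m-AAA protease before it joins the large subunit, had 28.9, 31.4 and 30.3 CPM in controls and 23.4, 23.8 and 24.2 CPM with progesterone (1.27-fold lower, adjusted p = 0.000227, edgeR). Mrpl40, of the central protuberance like Mrpl38, had 25.5, 22.4 and 25.3 and then 18.2, 21.6 and 20.05 CPM (1.22-fold lower, adjusted p = 0.00539, edgeR). Mrpl38 thus rose while Mrpl40 fell, and the other genes of the central protuberance were not compared. The calls of Mrps6, Mrpl27, Mrpl32 and Mrpl40 held under each of the 15 alternative analyses tried.

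The last 3 falls were narrow. Mrpl47, the counterpart of bacterial L29 beside the exit of the peptide tunnel, had 19.5, 17.6 and 17.7 CPM in controls and 16.4, 15.6 and 14.6 CPM with progesterone (1.18-fold lower, adjusted p = 0.0188, edgeR). Its call was lost without control 1 (adjusted p = 0.0819) or progesterone 3 (0.0825). The gene overlaps Actl6a by 1443 bases on the opposite strand, and Actl6a was higher with progesterone (log2 0.41). Mrps25, a small subunit protein particular to mitochondria, had 42.1, 41.0 and 41.9 and then 35.9, 40.6 and 35.6 CPM (1.12-fold lower, adjusted p = 0.0366, edgeR), with its second progesterone library just below the controls. The call of Mrps25 was lost without each library except progesterone 2 (adjusted p from 0.0569 without control 2 to 0.147 without progesterone 3). Mrpl37, particular to mitochondria, had 84.6, 84.8 and 85.2 and then 77.8, 79.8 and 78.0 CPM (1.08-fold lower, adjusted p = 0.0267, edgeR), a small but even shift. It was not called without control 2 (adjusted p = 0.0563), progesterone 1 (0.0781) or progesterone 3 (0.0793).

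Several abundant genes did not pass the test, and in 7 genes, Mrpl21, Mrpl41, Mrpl49, Mrpl52, Mrpl57, Mrps11 and Mrps24, the groups did not overlap although the call was missed. Compared per length over both groups, the levels of the 73 tested genes ran from 2.15 FPKM for Mrpl30 to 205 FPKM for Mrpl33, with quartiles of 19.0 and 46.7, and 66 of them lay between 10 and 100. Mrpl33 had 174 ± 7.34 FPKM in controls and 236 ± 5.02 with progesterone (SD, n = 3). Next came Mrpl17, with 122 FPKM in controls and 123 with progesterone (log2 0.01 ± 0.05, adjusted p = 0.907, edgeR), and Mrpl54, with 92.2 and 85.0 FPKM (log2 -0.12 ± 0.06, adjusted p = 0.109, edgeR). Leaving out control 3 or progesterone 2 brought Mrpl54 past the threshold (adjusted p = 0.0440 and 0.0114), as a fall. Mrpl12 had the fourth level, 63.1 and 104 FPKM. The median over the tested genes was 29.1 FPKM in controls and 33.6 with progesterone, with 31.1 and 34.9 for Mrpl and 26.0 and 30.7 for Mrps genes. Level and change were hardly related across the 73 genes (Spearman's rho -0.04 between FPKM and log2 fold change), where the points share libraries and depth.

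**Figure D4:**
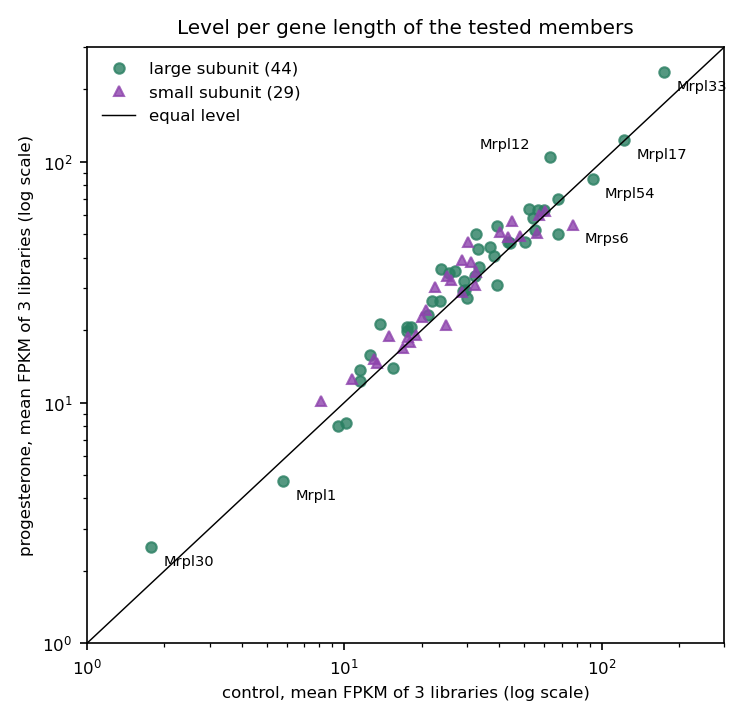
Mean FPKM with progesterone against mean FPKM in controls for each tested gene, on log axes, with a line at equal levels and separate marks for the 44 large and 29 small subunit genes. The points follow the line over the range from 2.15 to 205 FPKM, with Mrpl12 clearly above it and Mrps6 below it.

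Within a group the libraries were close, with a median coefficient of variation of 4.21% in controls and 3.79% with progesterone. Mrpl1 and Mrpl30 stood apart. Mrpl30 had 274, 8 and 104 counts in controls and 240, 8 and 241 with progesterone, low in library 2 of both groups. Mrpl1 had 198, 247 and 23 counts in controls and 154, 107 and 81 with progesterone. Their log2 fold changes were 0.49 ± 1.48 and -0.30 ± 0.89 (adjusted p = 0.799 and 0.798, edgeR), and without control 2 that of Mrpl30 was -0.06. The model of Mrpl30 overlaps that of Mitd1 on the opposite strand over 76963 bases, and Mitd1 was far lower with progesterone (log2 -3.12). Without both genes, an alternative added after their values were seen, the ratio of the Mrpl to the Mrps sum was 1.64 in controls and 1.65 with progesterone. Mrps34, Mrps16 and Mrps36 did not pass the test, at log2 values of 0.08, 0.04 and -0.02 (adjusted p = 0.188, 0.712 and 0.795, edgeR).

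Further proteins of the mitochondrial ribosome carry other names. Of 4 measured, Chchd1, in the small subunit, rose from 31.3, 26.2 and 28.1 CPM to 34.95, 38.6 and 38.3 CPM (log2 0.38 ± 0.07, adjusted p = 0.000238, edgeR), with no overlap. Dap3, a GTP-binding small subunit protein also named death-associated protein, Ptcd3, a small subunit pentatricopeptide repeat protein, and Gadd45gip1, in the large subunit, did not pass. Their log2 fold changes were -0.04, 0.03 and 0.04 (adjusted p = 0.504, 0.579 and 0.566, edgeR), with overlapping groups.

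Assembly of the ribosome needs GTPases, methyltransferases and helicases. Of 25 tested assembly genes, 11 rose and 2 fell (median log2 0.13). The GTPase Gtpbp10 rose from 7.68, 7.17 and 7.18 CPM to 13.7, 11.96 and 12.6 CPM (1.74-fold, adjusted p = 8.94e-06, edgeR). Noa1 and Rcc1l rose 1.47-fold each and the GTPase Mtg1 1.33-fold, while Ngrn (log2 -0.32) and the pseudouridine synthase-like Rpusd3 (-0.44) fell. Without control 2 the 11 rises became 7.

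Of 15 tested translation factors 8 rose and 1 fell (median 0.20). The elongation factor Tufm rose 1.22-fold (125.7 ± 5.23 to 153.7 ± 7.55 CPM, SD, n = 3), its exchange factor Tsfm 1.43-fold, the recycling factor Gfm2 1.34-fold and Lrpprc, which stabilises mitochondrial mRNAs, 1.24-fold. The recycling factor Mrrf, the single fall (log2 -0.18), was not called without control 2, progesterone 1, progesterone 2 or progesterone 3. Among 19 tested genes that charge mitochondrial tRNAs, 11 rose and 0 fell (median 0.29), among them Aars2 (1.5-fold), Qrsl1 (1.46-fold) and Gatb (1.31-fold). In the last list 1 fall was called without control 1, control 3 or progesterone 3. These lists, like the ribosomal genes, held more rises than falls where 31.2% of all genes rose and 31.8% fell.

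The ribosome reads mitochondrially encoded mRNAs and has mitochondrially encoded rRNAs at its core. Of the 13 mRNAs 12 rose (median log2 1.17), and their sum was 28998 to 29770 CPM in controls and 54933 to 57301 CPM with progesterone. The 2 mitochondrial rRNAs fell (log2 -1.86 and -2.94), with sums of 7614 to 8063 and 1424 to 1724 CPM. The libraries were enriched for mRNA, so the share of an rRNA that was captured may not follow its level, and whether the enrichment differed between the groups was not tested. Of 17 genes for the upkeep and expression of mitochondrial DNA, 9 rose and 2 fell (median 0.20). Pnpt1, a nuclease that takes part in mitochondrial RNA decay and import, fell from 98.6, 99.4 and 97.6 CPM to 40.8, 39.0 and 39.8 CPM (log2 -1.31 ± 0.04, adjusted p = 7.92e-13, edgeR), the strongest fall in these lists of nuclear mitochondrial genes. Its partner helicase Supv3l1 rose 1.37-fold. The other fall, Hsd17b10, was at log2 -0.36, and 1 fall was called without control 2 or progesterone 2.

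Rises were also frequent among nuclear genes of other mitochondrial parts. Of 59 tested genes for nuclear-encoded respiratory chain and ATP synthase subunits, 42 rose and 2 fell (median log2 0.20). The largest called rise in this list was at log2 5.04, far above the list's upper quartile of 0.29. Called changes of at least 1.5-fold were found for 2 of the 59. Those named for the smallest adjusted p were Ndufa2 at 1.51-fold, Ndufb5 at 1.44-fold, Cyc1 at 1.35-fold and Cox7c at 1.31-fold. The falls were Ndufa8 (log2 -0.28) and Atp5f1b (-0.15), and without control 3 there were 4. Of 15 tested genes for import, chaperones, proteases and the outer membrane, 12 rose and 1, Vdac3 (log2 -0.26), fell (median 0.35). The smallest adjusted p were those of Tomm40 (1.57-fold), Timm44 (1.34-fold), Hspd1 (1.33-fold) and Lonp1 (1.31-fold). Hspe1, with a larger adjusted p, rose 1.40-fold, by more than all of these but Tomm40. The proteins of the cytoplasmic ribosome gave 32 rises of 37 in the large subunit (median 0.29) and 23 of 28 in the small (median 0.30), with 0 falls in both. A rise past the test was thus found for 49.3% of the mitochondrial ribosomal protein genes, 86.5% of those of the cytoplasmic large and 82.1% of those of the cytoplasmic small subunit. Of 42 measured cytoplasmic large subunit genes, Rpl10a, Rpl23a, Rpl37, Rpl38 and Rpl39 had too few counts to be tested (0 to 32 over all libraries). Differences between lists were not tested.

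**Figure D5:**
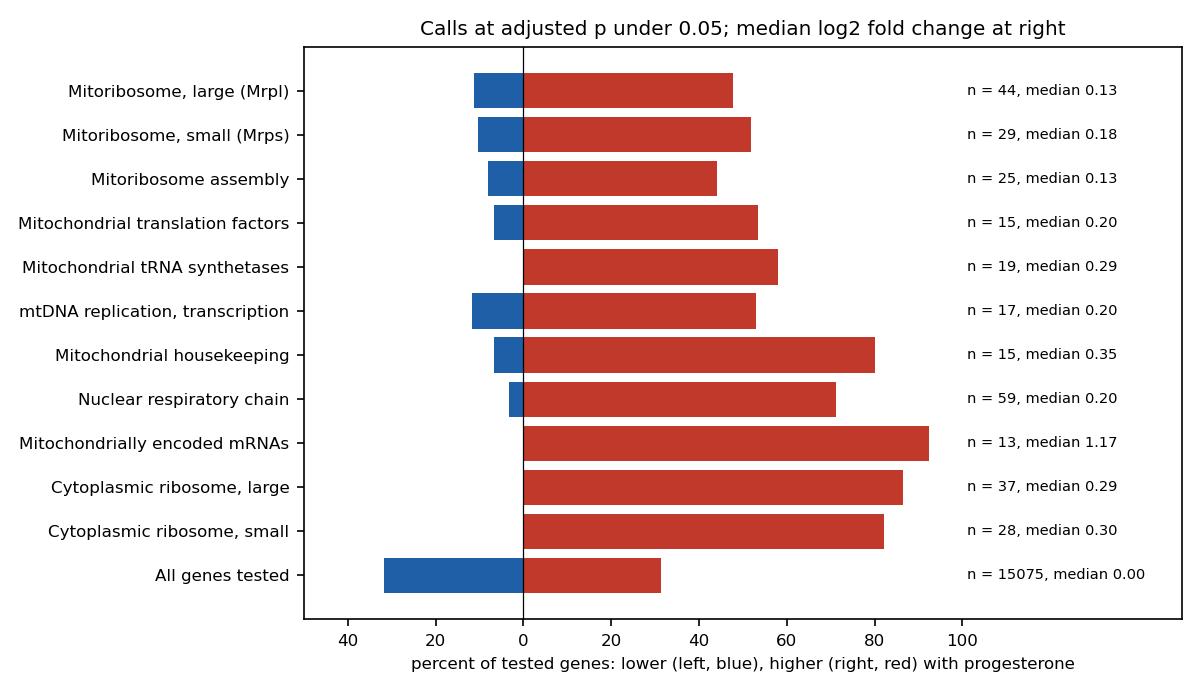
Share of tested genes that were higher or lower with progesterone in each gene list, with the number tested and the median log2 fold change, and all tested genes for comparison (31.2% higher, 31.8% lower). The Mrpl (47.7% and 11.4%) and Mrps genes (51.7% and 10.3%) lie between all genes and the cytoplasmic ribosomal protein genes.

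Among 12 regulators linked to mitochondrial genes, 7 rose (58.3%) and 4 fell (33.3%), where 31.2% of all genes tested rose and 31.8% fell. Nrf1, whose element is shown above, rose from 28.7, 25.2 and 28.1 CPM to 33.7, 33.0 and 31.7 CPM (log2 0.26 ± 0.07, adjusted p = 0.00292, edgeR). Gabpa, the DNA-binding part of GABP, rose from 50.9, 52.2 and 55.1 CPM to 66.4, 62.3 and 62.6 CPM (log2 0.27 ± 0.05, adjusted p = 0.000173, edgeR), and its partner Gabpb1 had a log2 fold change of 0.38. Both factors were apart between the groups. The coactivators Pprc1 (log2 0.59) and Ppargc1b (0.40) rose, as did Sp1 (0.36) and Myc (0.27).

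Yy1, whose element AAGATGG was in 16 of the 60 promoters, fell from 65.0, 65.0 and 61.6 CPM to 57.3, 53.5 and 60.6 CPM (log2 -0.16 ± 0.05, adjusted p = 0.0139, edgeR). This call was lost without control 1 (adjusted p = 0.0526), control 2 (0.0601) or progesterone 2 (0.0770). Ppargc1a, the coactivator PGC-1 alpha, had 22.5, 29.0 and 30.6 CPM in controls and 21.6, 21.5 and 23.2 CPM with progesterone, with overlap. Its fall (log2 -0.31 ± 0.10, adjusted p = 0.0202, edgeR) was lost without control 2 (0.0759), control 3 (0.0632), progesterone 1 (0.0773) or progesterone 2 (0.0858). Esrrg fell by 0.20 on the log2 scale and Esrrb, below 3 CPM in each library, by 0.97, a call lost without control 3 (0.114) or progesterone 1 (0.0876). Esrra did not pass the test (log2 -0.04, adjusted p = 0.508, edgeR).

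Many of these genes share a start region with another gene. A neighbour that starts within 1000 bases upstream on the opposite strand was listed for 16 of the 76 (21.1%), against 6.63% of 22250 protein-coding rows and 9.68% of the 13776 that were tested. The count was 14 within 500 bases and 22 within 2000 bases. Mrpl46 and Mrps11 are each other's neighbour, 72 bases apart, and neither passed the test. Mrps12 starts 16 bases from Sars2, which encodes the mitochondrial seryl-tRNA synthetase, and Sars2 did not pass (log2 -0.00, adjusted p = 0.966, edgeR).

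Of the 16 neighbours 2 rose and 5 fell, where 31.2% of all genes tested rose and 31.8% fell. Among the 16 pairs, in which Mrpl46 and Mrps11 appear from both sides, both genes rose in 1, Mrpl18 with the chaperonin subunit gene Tcp1 (log2 0.40 and 0.67, starts 372 bases apart). Both fell in 1, Mrpl32 with the proteasome subunit gene Psma2 (log2 -0.34 and -0.20, 192 bases). In 3 pairs the changes were opposite. Mrpl47 fell while Ndufb5, 266 bases away and encoding a complex I subunit, rose (log2 -0.24 and 0.53). Mrpl50 and Mrps18b rose while Zfp189 (log2 -0.29) and Ppp1r10 (log2 -0.22) fell. In the other pairs at least 1 of the genes did not pass the test.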

How the data were processed

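mRNA-enriched RNA of 6 libraries (3 control, 3 progesterone, grouped by their titles) was sequenced after TruSeq library preparation, per the labels' protocols. Bowtie 0.12.2 and the mouse build mm8 are named in the submitters' processing notes, while the gene identifiers are those of rat Ensembl genes. For the rat build, the read counter and the strand setting, the sources used here give nothing. The authors deposited raw counts per gene and FPKM values per gene, each in a table of its own.

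Counts were tested with edgeR (version 4.0.16, R version 4.3.3: filterByExpr at 10 counts and a total of 15, TMM scaling with factors of 0.984 to 1.01, robust quasi-likelihood fit and test, Benjamini-Hochberg adjustment over all 15075 genes tested at 0.05). CPM values are TMM-scaled and are given for control 1, 2 and 3 and progesterone 1, 2 and 3 in that order. Libraries correlated (Pearson, log2 CPM) at 0.992 to 0.993 within a group and at 0.919 to 0.927 across groups. No replicate pair was close enough to be counted as 1 library, since chi-square over its degrees of freedom was 5.39 to 9.33. Promoters come from RefSeq (GRCr8) and were matched by symbol, and element cores of 7 letters were searched on both strands.

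The members, gene lists and named-gene rule were chosen with earlier results of these data known. The rule names, per subunit, up to 7 rises and 7 falls of the greatest log2 size (adjusted p under 0.05, at least 1 CPM on average, no overlap of the groups), the 3 highest and 3 lowest by FPKM, and a set of 12 genes of known role. From the other lists it names up to 4 with the smallest adjusted p, and all further ribosomal proteins and regulators. Genes given by a value beyond the rule (Mrpl18, Mrpl14, Mrpl50, Mrpl10, Mrpl1, single falls of a list, and neighbours) were chosen after their values were seen. The grouping by bacterial counterpart and the sums without single genes or without Mrpl1 and Mrpl30 were added after the files were seen. Alternatives were scaling by DESeq2 size factors, by the upper quartile or by library size, no filter, a filter of 1 CPM in 3 libraries, each library left out, a block for the replicate number, the DESeq2 test (version 1.42.0), and limma 3.58.1 on log2(FPKM + 1) and log2(FPKM + 0.1).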

Additional observations from a re-analysis of the deposited data

How the results depend on the processing

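Of the 36 genes that rose, 25 were called under each of the 15 alternatives, and of the 8 that fell, 4. With upper quartile scaling the falls were 4 of all, 3 Mrpl and 1 Mrps, and the medians 0.23, 0.23 and 0.27. Falls in the other mitochondrial and the cytoplasmic ribosomal lists together were then 8, with 8 to 16 over the 15 alternatives. Under the same scaling Mrps36, Dap3 and Esrra turned to log2 0.076, 0.059 and 0.0599. Library size scaling gave an Mrpl median of 0.12 and Mrpl17 at -0.00747, and no filter gave 0.12 and -0.00296. DESeq2 gave 28 rises and 4 falls (3 Mrpl, 1 Mrps), where 4205 of all 17727 genes tested rose and 4418 fell. With limma on log2(FPKM + 1) the Mrpl median was 0.13. The ratio of the subunit sums was 2.04 in controls and 2.06 with progesterone by structure, 1.92 and 1.98 from FPKM, and 1.72 and 1.73 from FPKM without Mrpl33.

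Leaving out 1 library gave 28 to 33 rises and 5 to 9 falls (Mrpl 15 to 19 and 3 to 6, Mrps 12 to 14 and 1 to 3), with medians of 0.11 to 0.15, 0.11 to 0.14 and 0.12 to 0.22. Among the genes of the naming rule, sign changes were found for Mrpl17 (-0.027 to 0.048), Mrpl30 (-0.057 to 1.60), Mrps16 (-0.034 to 0.13), Mrps36 (-0.089 to 0.019) and Ptcd3 (-0.0018 to 0.066). Genes outside the rule were not examined for this. With the replicate number as a block, 35 rose and 8 fell. Same-numbered libraries correlated at 0.076, 0.023 and 0.014 in their deviations, so the numbers were not taken as a pairing. A 3 against 3 design, an unknown strand setting of the counts and an unnamed build limit what single small shifts show.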
